A study of Schizosaccharomyces pombe with 4 samples.

Results

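The nuclear transfer RNA (tRNA) genes and the dispersed 5S ribosomal RNA (rRNA) genes of the fission yeast Schizosaccharomyces pombe were examined in genome-wide maps of the telomere proteins Taz1 and Rif1, made by chromatin immunoprecipitation and hybridisation to tiling arrays (ChIP-chip). Every gene of the ASM294v3 annotation with TRNA in its identifier, and every 5S gene outside the ribosomal DNA arms of chromosome III, was taken, a rule that uses the annotation alone. This gave 171 tRNA genes and 36 5S genes, 207 of the 12566 annotated nuclear genes outside those arms. Chromosomes I, II and III carried 56, 68 and 47 of the tRNA genes and 12, 16 and 8 of the 5S genes. Each 60-base tile was taken to stand for the 300 bp interval around its position, and a gene was read through the tiles whose interval overlapped it or came within 500 bp of it. These windows held 767 of the 41095 tiles placed on the assembly, and the intervals of 246 tiles overlapped a gene itself. These 246 are called gene tiles, though their 60 bases need not lie in the gene. A value was obtained for 170 tRNA genes, 164 of them from at least 2 tiles, and for all 36 5S genes. SPCTRNALEU.13, a centromeric gene of chromosome III, had no tile and is the 1 gene without a value.

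Taz1 is the fission yeast protein that recognises duplex telomeric DNA, and Rif1, found at telomeres, is also known for its action on origins of replication. All cells were grown to log phase in rich medium (YEA) at 30 °C, fixed with 3% paraformaldehyde, and their DNA was sheared to 500 to 1000 bp. Taz1_wt was precipitated from wild-type cells with an antibody raised against Taz1, and Taz1_L593F with the same antibody from cells with the taz1l593F allele. Taz1_GFP was precipitated with a GFP antibody from taz1GFP cells, and Rif1_Myc with a Myc antibody from Rif1Myc cells. Each group was 1 array, on which precipitated (IP) DNA carried Cy5 and whole-cell extract (WCE) DNA carried Cy3, with no dye swap. No GFP or Myc precipitate from untagged cells, no Taz1 precipitate from cells lacking Taz1 and none without antibody was analysed here. Tagging, antibody and strain thus cannot be told apart from the protein on Taz1_GFP and Rif1_Myc. Nor can antibody and strain on Taz1_wt and Taz1_L593F.

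A value is the mean over a gene's tiles of log2(IP/WCE), centred so that the median tile of its array is 0. The 500 to 1000 bp fragments cover several tiles, so the spread over tiles is not a replicate error, and with 1 array per group there is none. No difference between arrays or gene classes below was tested, and counts are set beside the share of all windows of the same length, 1 around each of the 41095 tiles, that met the same rule. The robust standard deviation of the tiles was 0.24 (Taz1_wt), 0.28 (Taz1_GFP), 0.20 (Taz1_L593F) and 0.40 (Rif1_Myc).

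RNA polymerase III transcribes tRNA and 5S genes from promoters that lie inside the transcribed sequence. In a tRNA gene the factor TFIIIC binds the internal A and B boxes, and in a 5S gene TFIIIA binds first. TFIIIC then brings TFIIIB, which recruits the polymerase. In fission yeast, tRNA genes are dense at the centromeres, where they flank the central core and the edges of the heterochromatic outer repeats, and some act as boundaries of heterochromatin.

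The sequences on which the comparisons turn are given 5′ to 3′ on the gene's strand, read from the RefSeq assembly ASM294v3. In the tRNA genes, capitals mark the B box letters, which read GGTTC, any base, A, any 2 bases and CC, where a gene holds them. The first 2 sequences are carried by several genes at different places, 6 genes each, and give the comparison of identical sequences. The alanine, glycine and lysine genes are among the highest of an array.
SPBTRNAILE.05 (chrII:1600086-1600159, + strand): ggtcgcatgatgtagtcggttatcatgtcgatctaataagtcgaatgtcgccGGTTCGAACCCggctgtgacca
SPBTRNAGLU.08 (chrII:4107639-4107710, + strand): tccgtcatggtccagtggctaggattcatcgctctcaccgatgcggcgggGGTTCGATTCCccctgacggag
SPATRNAALA.01 (chrI:934665-934738, - strand): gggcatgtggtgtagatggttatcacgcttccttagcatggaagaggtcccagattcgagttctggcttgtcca
SPATRNAALA.03 (chrI:3157430-3157501, + strand): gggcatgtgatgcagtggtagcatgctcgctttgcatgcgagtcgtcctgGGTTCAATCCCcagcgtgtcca
SPATRNAGLY.01 (chrI:1646292-1646362, - strand): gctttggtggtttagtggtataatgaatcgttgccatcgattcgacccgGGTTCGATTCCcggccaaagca
SPBTRNALYS.07 (chrII:1599706-1599788, + strand): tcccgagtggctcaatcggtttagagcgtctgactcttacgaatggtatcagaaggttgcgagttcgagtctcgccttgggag
In the 5S genes below, capitals mark bases that differ from SPRRNA.10 in an alignment without gaps. SPRRNA.10 shows the common 5S sequence, SPRRNA.11 the highest Rif1_Myc value, and SPRRNA.54 the most divergent and lowest 5S gene on Taz1_wt.
SPRRNA.10 (chrI:149658-149776, + strand): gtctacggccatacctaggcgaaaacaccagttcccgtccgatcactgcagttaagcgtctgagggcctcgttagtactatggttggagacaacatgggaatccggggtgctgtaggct
SPRRNA.11 (chrI:456527-456645, + strand): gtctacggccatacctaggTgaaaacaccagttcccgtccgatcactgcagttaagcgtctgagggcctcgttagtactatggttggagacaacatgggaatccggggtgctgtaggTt
SPRRNA.54 (chrII:3096966-3097084, - strand): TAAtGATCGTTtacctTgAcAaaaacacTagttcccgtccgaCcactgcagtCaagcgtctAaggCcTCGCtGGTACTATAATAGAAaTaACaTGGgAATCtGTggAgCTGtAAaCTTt

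The B box letters were found on the sense strand of 112 of 171 tRNA genes (65.5%), beginning at a median of base 52. They were found in 0 of 36 5S genes and in 0.0766% of 172216 genome pieces of the median tRNA gene length. A stricter form with G as the sixth base, contained in the first, was in 96 tRNA genes. Copies were frequent. The 171 tRNA genes held 69 distinct sequences, and 133 genes had at least 1 identical copy elsewhere. The 119 bases of SPRRNA.10 recurred without a difference in 23 of 36 5S genes and with at most 3 differences in 34. SPRRNA.11 differed by C20T and C118T, counted from 1 at the 5′ end. The exceptions were SPRRNA.54, with 51.3% identity without gaps, and SPRRNA.41, with 63.0%. Without gaps, a stretch shifted by 1 base counts as different, so these values can understate likeness. SPRRNA.41 is annotated at 80 bases, and the compared 119 bases begin at −45 from its start, so they lie partly outside it.

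On Taz1_wt and Taz1_GFP, signal over tRNA and 5S genes was modest in height and present at nearly all of them. The median tRNA gene stood at 0.39 (Taz1_wt), 0.36 (Taz1_GFP), 0.04 (Taz1_L593F) and 0.08 (Rif1_Myc). The median 5S gene stood at 0.45, 0.31, 0.07 and 0.27 on the same arrays. The 5S and tRNA medians thus lay within 0.06 of each other on the 3 Taz1 arrays, while on Rif1_Myc the 5S median was higher by 0.20. The tRNA medians include centromeric genes, described below. Against the tRNA genes outside the centromeres, the 5S median was higher by 0.11 on Taz1_wt, 0.003 on Taz1_GFP and 0.18 on Rif1_Myc. On Taz1_L593F that difference was −0.0002. With normexp background correction the Taz1_L593F tRNA median turned to −0.019 and the Rif1_Myc medians to −0.24 for tRNA and −0.030 for 5S genes. Without registering the tiles on the assembly the Taz1_wt medians were 0.19 and 0.086. Protein-coding genes had medians of 0.00 on Taz1_wt and Taz1_GFP, 0.01 on Taz1_L593F and −0.02 on Rif1_Myc.

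Above the array median were 159 of 170 tRNA genes (Taz1_wt), 164 (Taz1_GFP), 101 (Taz1_L593F) and 107 (Rif1_Myc). Of all windows, 49.0% lay above it (Taz1_wt), 49.6% (Taz1_GFP), 50.6% (Taz1_L593F) and 49.9% (Rif1_Myc). For the 36 5S genes the counts were 35, 33, 27 and 33. The Taz1_L593F and Rif1_Myc counts of tRNA genes were thus nearer the background than those of the other arrays, and 5S genes exceeded it on all 4.

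At least 1.5-fold enrichment was reached by 37 tRNA genes on Taz1_wt and 32 on Taz1_GFP, by 0 on Taz1_L593F and by 7 on Rif1_Myc. The background shares were 1.83% of windows (Taz1_wt), 3.21% (Taz1_GFP), 0.195% (Taz1_L593F) and 6.97% (Rif1_Myc). Thus 21.8% of tRNA genes on Taz1_wt and 18.8% on Taz1_GFP passed this level, and 4.12% on Rif1_Myc, below that array's background. Of the 5S genes 3, 4, 0 and 4 passed it. At 2-fold, 5 tRNA genes passed (Taz1_wt), 3 (Taz1_GFP), 0 (Taz1_L593F) and 2 (Rif1_Myc), against 0.506%, 0.976%, 0.0292% and 1.86% of windows. Of the 5S genes, 1 passed, on Rif1_Myc.

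**Figure D1:**
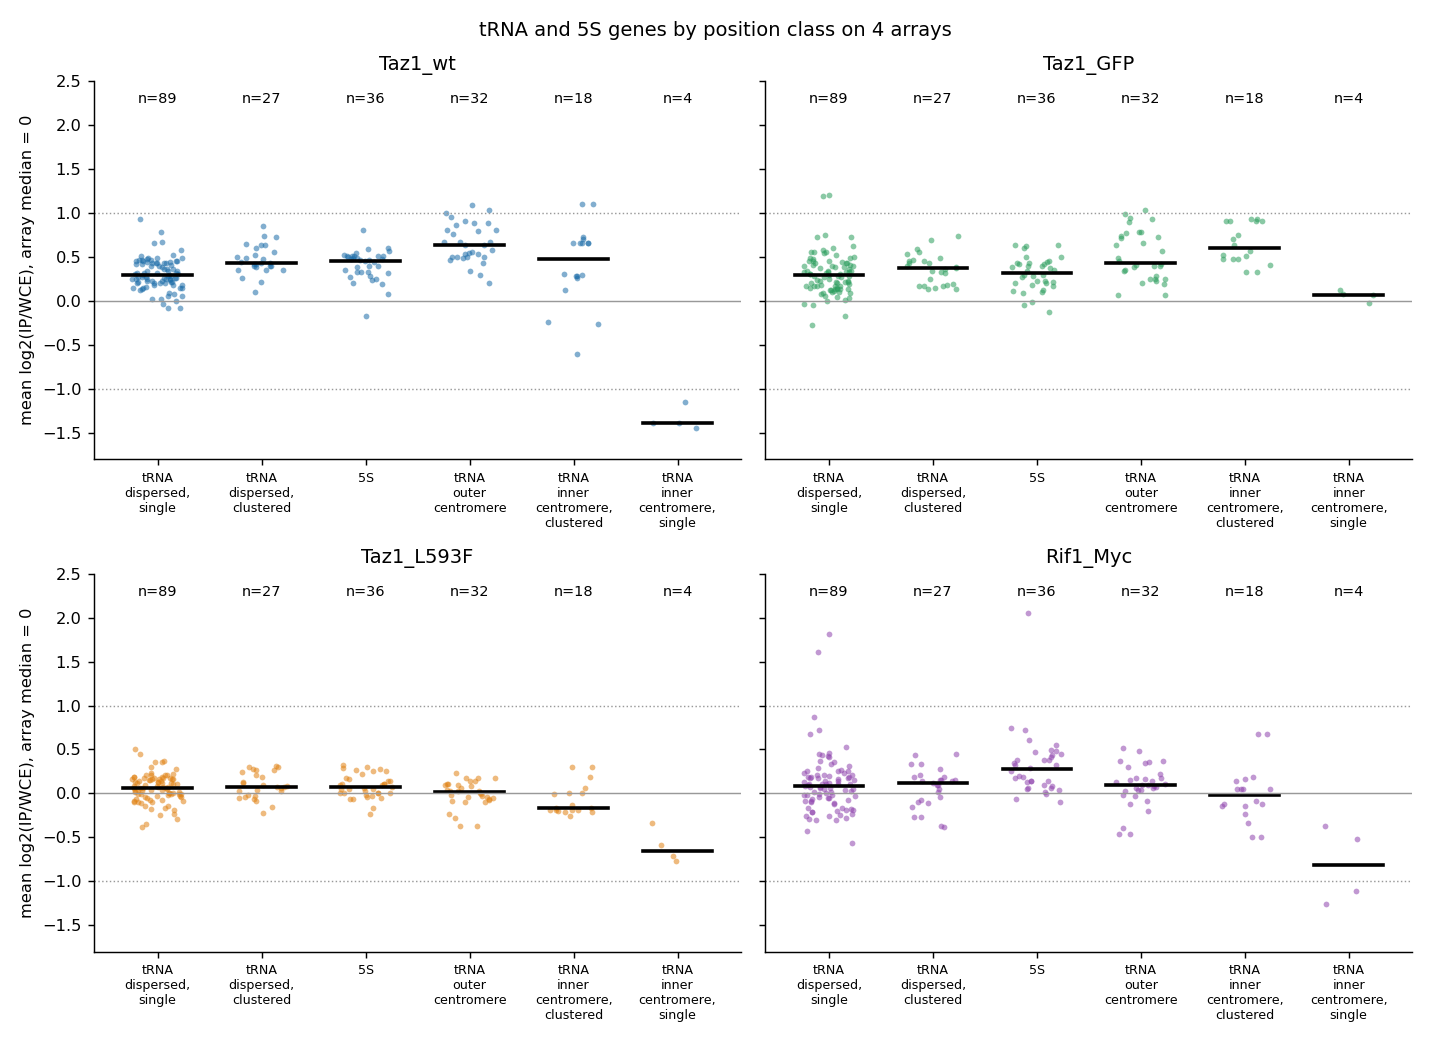
Mean log2(IP/WCE) of each tRNA and 5S gene (points) on the 4 arrays, by position class, with the class median as a black bar and dotted lines at 2-fold higher and lower. On Taz1_wt the 4 measured inner centromeric single genes sit between −1.45 and −1.15, while the median of the 32 outer centromeric genes is 0.63, and on Rif1_Myc 3 genes stand at 1.61 or higher.

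On Taz1_wt and Taz1_GFP the signal lay at or near the genes and fell off within about 1 kb. The sheared fragments were 500 to 1000 bp long, so a narrower width could not be resolved. Over the 89 dispersed tRNA genes with no other tRNA or 5S gene within 1 kb, tiles within 150 bp of the gene had a median of 0.40 (Taz1_wt), 0.38 (Taz1_GFP), 0.14 (Taz1_L593F) and 0.17 (Rif1_Myc). By 750 to 950 bp downstream the medians were 0.06, −0.01, −0.04 and 0.06. Over the 5S genes the tiles nearest the gene had medians of 0.54 (Taz1_wt), 0.38 (Taz1_GFP), 0.13 (Taz1_L593F) and 0.49 (Rif1_Myc). On Rif1_Myc the 5S value was 0.10 at 350 to 550 bp upstream and 0.12 downstream, with tiles over other tRNA or 5S genes left out, and at single tRNA genes it was 0.17 at its highest near the gene.

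The highest tile within 3 kb lay in the gene's own window for 81 of 116 dispersed tRNA genes (Taz1_wt), 72 (Taz1_GFP), 46 (Taz1_L593F) and 31 (Rif1_Myc). The same held for 22.4%, 22.2%, 23.2% and 21.5% of all windows. For 5S genes the counts were 30, 25, 21 and 17 of 36. The Rif1_Myc count for tRNA genes, 26.7%, was near its background, and the 5S share was 47.2%.

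**Figure D2:**
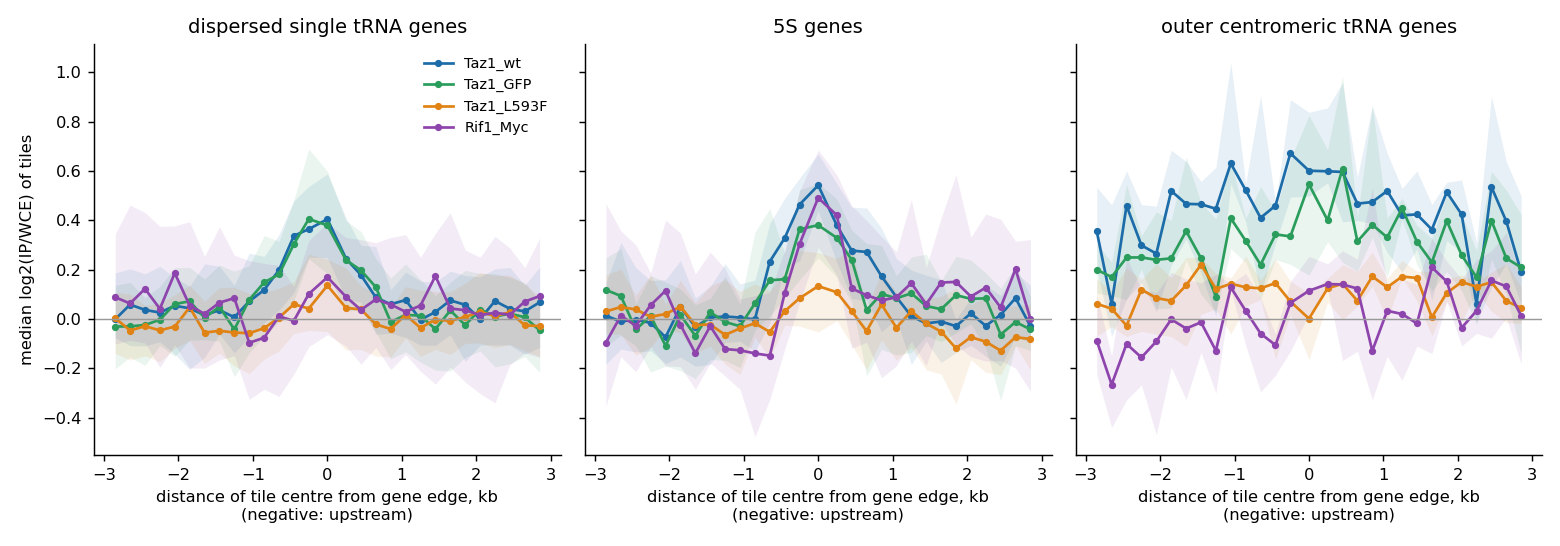
Median log2(IP/WCE) of tiles (points) with quartiles (bands) against the distance in kb of the tile centre from the gene edge, upstream negative, for 89 dispersed single tRNA genes, 36 5S genes and 32 outer centromeric tRNA genes, with tiles over other such genes left out of the flanks. At dispersed single tRNA genes Taz1_wt and Taz1_GFP peak at 0.40 and 0.41 and return towards 0 within 1 kb, at 5S genes Rif1_Myc also peaks, at 0.49, and at outer centromeric genes the Taz1_wt level stays raised across the whole span.

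The sides of the dispersed single genes differed by array. On Taz1_wt, tiles 150 to 750 bp upstream had a median of 0.28 per gene and those downstream 0.17, with the upstream side higher at 57 of 89 genes. This came from genes annotated on the minus strand, where upstream was higher at 33 of 43, against 24 of 46 on the plus strand. The upstream side was higher at 52 of 89 genes on Taz1_GFP, 50 on Taz1_L593F and 36 on Rif1_Myc, where the median difference was −0.11.

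Gene tiles that reach into a gene can take up DNA of identical copies, so gene and flank tiles were also read apart. For tRNA genes the median was 0.47 over gene tiles and 0.32 over flank tiles on Taz1_wt, and 0.42 and 0.29 on Taz1_GFP. For 5S genes it was 0.55 and 0.36 on Taz1_wt, and 0.48 and 0.15 on Rif1_Myc. The flank tiles of tRNA genes, which hold no tRNA or 5S sequence, had medians of 0.06 on Taz1_L593F and 0.02 on Rif1_Myc. The part of identical copies in the values of gene tiles was not tested.

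The tRNA genes of the centromeres differed in level from those elsewhere. The longest interval without a protein-coding gene was taken as the centromere of each chromosome. These intervals were chrI:3751730-3790923 with 7 tRNA genes, chrII:1596745-1648231 with 27 and chrIII:1064444-1142615 with 21, which made 55 centromeric and 116 dispersed genes. The 54 measured centromeric genes had a median of 0.57 (Taz1_wt), 0.48 (Taz1_GFP), −0.04 (Taz1_L593F) and 0.05 (Rif1_Myc). The dispersed genes had 0.34, 0.31, 0.07 and 0.10. The centromeric median was thus higher by 0.23 on Taz1_wt and by 0.17 on Taz1_GFP, and lower by 0.10 on Taz1_L593F and by 0.05 on Rif1_Myc. With normexp these differences were 0.63, 0.46, 0.0035 and 0.097, so the latter pair changed sign. Raised tiles in the centromeres were not confined to tRNA genes. For instance, tiles away from any tRNA gene stood at 1.20 (centromere I) and 1.32 (centromere III) on Taz1_wt. On Rif1_Myc the same tiles stood at 1.27 and 1.23. The highest tile within 3 kb lay in the gene's own window for 37.0% of centromeric genes on Taz1_wt and 44.4% on Taz1_GFP. For dispersed genes the shares were 69.8% and 62.1%, and for all windows 22.4% and 22.2%.

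These centromeric medians depend on how genes that share tiles are counted. When genes whose windows touch were averaged to 1 value per locus, the 17 centromeric loci had a Taz1_wt median of 0.29 and the 107 dispersed loci 0.32, so the order turned. Of the tiles in centromeric windows, 67.0% carried an m or f mark in the probe name, against 0.98% at dispersed genes. Such marks fell mostly in repeats, with 80.5% of m and 57.1% of f tiles there against 0.136% of unmarked tiles. Without the marked tiles, 22 centromeric genes remained, with medians of 0.50 on Taz1_wt and 0.21 on Taz1_GFP, which turned the Taz1_GFP difference to −0.10.

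Within the centromeres the genes split by distance from the core. The 32 outer genes, within 10 kb of an interval's edge, had medians of 0.63 (Taz1_wt), 0.43 (Taz1_GFP), 0.01 (Taz1_L593F) and 0.10 (Rif1_Myc). The 18 inner genes with a neighbour within 1 kb had 0.48, 0.60, −0.17 and −0.02. The 4 measured inner genes without such a neighbour had −1.39, 0.07, −0.65 and −0.81. All 27 tiles of the 18 inner clustered genes carried an m or f mark, and some of these genes share tiles. Without marked tiles 0 of the 18 remained. The 20 outer and 2 inner single genes that did remain had Taz1_wt medians of 0.52 and −1.59. Outer genes were above 0 at 32 of 32 on Taz1_wt, and inner single genes at 0 of 4. At least 2-fold depletion on Taz1_wt was found at 4 tRNA genes, all of them inner single genes, against 0.214% of windows.

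The inner single genes lay beside or inside the region of depletion at the cores. SPATRNAILE.03 and SPATRNAILE.04, a pair of isoleucine genes that flank the core of chromosome I, stood at −1.39 and −1.40 on Taz1_wt. On Taz1_GFP they were at 0.07 and 0.12, on Taz1_L593F at −0.77 and −0.59, and on Rif1_Myc at −1.11 and −1.26. They were the lowest 2 genes on Rif1_Myc, and depleted on every array but Taz1_GFP. On chromosome III, SPCTRNALEU.12, a leucine gene, stood at −1.45, 0.06, −0.34 and −0.52 on Taz1_wt, Taz1_GFP, Taz1_L593F and Rif1_Myc. SPCTRNAGLU.10, a glutamate gene beside it, stood at −1.15, −0.02, −0.71 and −0.38. SPCTRNALEU.12 is among 11 genes whose tiles lie where a break between 2 registration shifts was not settled, as are SPBTRNAILE.06 and SPATRNAGLU.04 described later. SPBTRNAVAL.06, which bounds the core of chromosome II, and SPBTRNAASP.05, which ends a locus described below, are among them too. All of the 11 but SPCTRNALEU.12 and SPBTRNAASP.05 are inner clustered genes, so the medians of that class carry this limit.

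The 19 tiles between the isoleucine pair had medians of −1.88 (Taz1_wt), −0.34 (Taz1_GFP), −0.69 (Taz1_L593F) and −1.19 (Rif1_Myc). Between the valine genes SPBTRNAVAL.06 and SPBTRNAVAL.07, which flank the core of chromosome II, 30 tiles had −1.95, −0.36, −0.53 and −0.92. In that core 1 tile stood apart, at 4.16 (Taz1_wt), 5.14 (Taz1_GFP), 1.71 (Taz1_L593F) and 4.34 (Rif1_Myc). On Taz1_wt and Taz1_GFP the isoleucine pair was thus higher than the core median between them. The depletion of chromosome I ran past the pair, and its lowest Taz1_wt tile, at −2.865, lay outside SPATRNAILE.03. Whole-cell extract signal was low at the inner single genes too, with centred log2 green medians of −1.12 (Taz1_wt), −3.15 (Taz1_GFP), −1.46 (Taz1_L593F) and −3.57 (Rif1_Myc). The part of this input signal in the ratios was not tested.

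**Figure D3:**
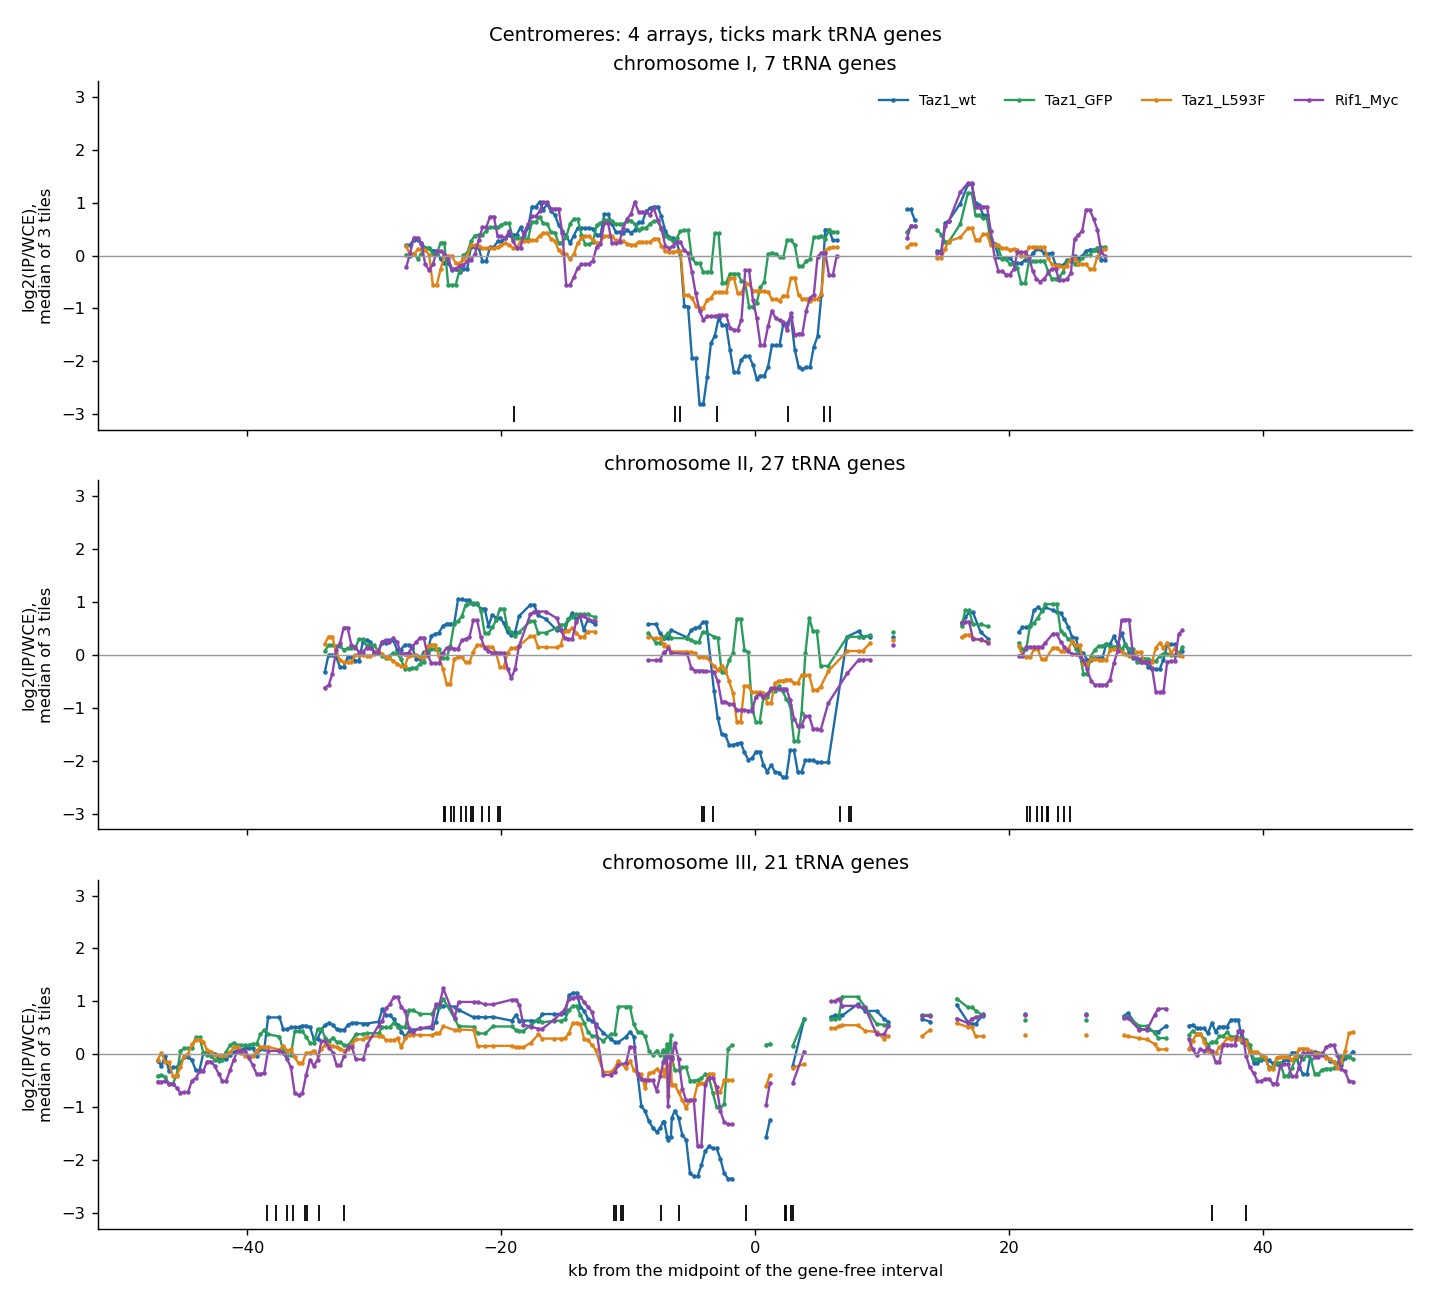
Running median over 3 tiles of log2(IP/WCE) against the distance in kb from the midpoint of each gene-free interval, with ticks for tRNA genes and gaps where tiles are over 1.5 kb apart. The running median hides 1 high tile of the chromosome II core, at 4.16 on Taz1_wt. On Taz1_wt the ratio is low in the cores between the innermost tRNA genes, with medians of −1.88 and −1.95 on chromosomes I and II, the low stretch of chromosome I runs past its isoleucine pair, and the outer tRNA clusters at both edges of chromosome II lie under broad Taz1_wt and Taz1_GFP plateaus.

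The 2 large outer clusters of chromosome II had the highest Taz1_wt means among the loci of 4 or more tRNA genes. A locus of 12 genes on the left, from SPBTRNAASN.01 to SPBTRNAASP.05, averaged 0.79 (Taz1_wt), 0.60 (Taz1_GFP), −0.11 (Taz1_L593F) and 0.18 (Rif1_Myc). A locus of 9 genes on the right, from SPBTRNATYR.03 to SPBTRNAARG.07, averaged 0.73, 0.62, 0.05 and 0.20. The centromeric genes of chromosome II as a whole had medians of 0.76, 0.66, −0.01 and 0.16. Those of chromosome III had 0.46, 0.43, −0.11 and −0.13, and the 7 of chromosome I had −0.24, 0.39, −0.20 and −0.12.

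The genes above 2-fold on Taz1_wt were all in centromere II. SPBTRNALYS.07, a lysine gene of the left cluster, stood at 1.09 ± 0.14 (SD over 5 tiles) (Taz1_wt), 0.90 (Taz1_GFP), −0.07 (Taz1_L593F) and 0.37 (Rif1_Myc). SPBTRNAILE.05, next to it, stood at 1.03, 1.03, −0.05 and 0.52, and SPBTRNAALA.08, an alanine gene, at 1.003, 0.99, 0.00 and 0.48. These neighbours share tiles and so are not independent values. SPBTRNAVAL.07 and SPBTRNAALA.10, on the inner right side, share their single tile, at 1.099, 0.93, 0.30 and 0.67. SPBTRNAGLY.07, a glycine gene of the left cluster, stood at 0.95, 0.78, −0.10 and 0.18, and SPBTRNAALA.11 of the right cluster at 0.87, 0.94, −0.01 and 0.36. In all 7 genes Taz1_wt and Taz1_GFP were the 2 highest arrays and Taz1_L593F the lowest.

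Identical sequences took different values at different places. The isoleucine sequence printed above is carried by SPATRNAILE.03 and SPATRNAILE.04, at −1.39 and −1.40 on Taz1_wt, and by 4 genes of centromere II. Those 4 stood at 1.03 for SPBTRNAILE.05, 0.65 for SPBTRNAILE.06, 0.72 for SPBTRNAILE.07 and 0.89 for SPBTRNAILE.08. The range over 6 identical copies thus ran from −1.40 to 1.03 on Taz1_wt, from 0.07 to 1.03 on Taz1_GFP, from −0.77 to 0.18 on Taz1_L593F and from −1.26 to 0.52 on Rif1_Myc.

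The glutamate sequence gave the same picture outside the centromeres. SPBTRNAGLU.08, a dispersed gene of chromosome II, stood at 0.93 (Taz1_wt), 1.21 (Taz1_GFP), −0.35 (Taz1_L593F) and 0.15 (Rif1_Myc). The dispersed copies SPBTRNAGLU.05 and SPCTRNAGLU.09 stood at −0.01 and −0.04 on Taz1_wt and at 0.05 and −0.05 on Taz1_GFP. The centromeric copies SPATRNAGLU.03, SPATRNAGLU.04 and SPCTRNAGLU.10 were at −0.27, −0.24 and −1.15 on Taz1_wt. Over 13 sequences present both at centromeres and elsewhere, the centromeric mean was the higher on Taz1_wt for 12, on Taz1_GFP for 9, on Taz1_L593F for 6 and on Rif1_Myc for 5. With outer centromeric genes alone the counts were 11, 8, 6 and 5 of 11. Copies share sequence and some share tiles, so these are counts and not a test.

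Clustering went with a higher Taz1 value also away from the centromeres. The 27 dispersed genes with a tRNA or 5S neighbour within 1 kb had medians of 0.43 (Taz1_wt), 0.38 (Taz1_GFP), 0.08 (Taz1_L593F) and 0.12 (Rif1_Myc). The 89 dispersed single genes had 0.29, 0.29, 0.06 and 0.08. The difference was 0.14 on Taz1_wt and 0.08 on Taz1_GFP, smaller than the interquartile range of the single genes, which ran from 0.20 to 0.43 and from 0.15 to 0.43. It became 0.03 and −0.17 with normexp background correction. The whole-cell extract signal of the clustered genes was also lower, with a median of −1.31 against −0.77 on the centred log2 scale over the arrays, and its part in the difference was not tested. The 10 5S genes with a neighbour within 1 kb had medians of 0.50, 0.35, 0.12 and 0.23, and the other 26 had 0.39, 0.29, 0.06 and 0.27.

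Among the dispersed tRNA genes, 2 stood above 2-fold on Taz1_GFP. SPBTRNAGLU.08 is described above. Its highest tile within 3 kb was 1.39 on Taz1_wt and 1.58 on Taz1_GFP, in both cases 169 bp upstream of the gene, so the signal was at the gene. The 1650 and 2258 bp to the nearest protein-coding genes, mug147 and SPBC56F2.05C, make it an isolated gene. SPATRNAGLY.01, a glycine gene of chromosome I between gid7 and vma1, stood at 0.67 (Taz1_wt), 1.19 (Taz1_GFP), −0.10 (Taz1_L593F) and 0.29 (Rif1_Myc). Its highest Taz1_GFP tile, 1.84, lay 808 bp upstream and thus outside the window, while the highest Taz1_wt tile, 1.17, lay 208 bp upstream. The lowest genes on Taz1_GFP were SPATRNALYS.05 at −0.28 and SPATRNATHR.02 at −0.17, which stood at 0.15 and 0.24 on Taz1_wt.

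Over the 116 dispersed tRNA genes, which are not independent replicates and share the arrays' base composition effects, the Pearson correlation between Taz1_wt and Taz1_GFP was 0.61 (Spearman 0.52). It was 0.57 with a fit on GC content removed. Between Taz1_wt and Taz1_L593F it was 0.22 (Spearman 0.29), and between Taz1_wt and Rif1_Myc −0.0018 (Spearman 0.12). For all windows the Taz1_wt and Taz1_GFP value was 0.61 as well. The windows of tRNA genes had a median GC content of 31.5% against 36.3% for all windows. Across the dispersed genes, GC content correlated with the value at −0.32 (Taz1_wt), −0.41 (Taz1_GFP), −0.32 (Taz1_L593F) and 0.28 (Rif1_Myc).

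With the taz1l593F allele the values over tRNA and 5S genes were lower. The difference Taz1_L593F minus Taz1_wt, taken per gene with the same antibody, had a median of −0.31 over 170 tRNA genes and −0.28 over 36 5S genes. It was below 0 at 157 tRNA genes and 34 5S genes, against 51.6% of windows. The allele's value was at least 1.5-fold lower at 37 tRNA genes (21.8%), against 1.41% of windows, and at 3 5S genes (8.33%). With 1 array of each group, how much arrays of the same strain would differ is not known. The smaller spread of the Taz1_L593F array, 0.20 against 0.24, applies to all its tiles.

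The difference followed the Taz1_wt level by class. It was −0.24 at the dispersed tRNA genes, with 110 of 116 below 0, and −0.64 at the outer centromeric genes, with 32 of 32 below 0. At the 4 inner single genes it was 0.71, with 0 of 4 below 0, as these were depleted less on Taz1_L593F than on Taz1_wt. The most negative single differences were −1.27 at SPBTRNAGLU.08, −1.16 at SPBTRNALYS.07 and −1.08 at SPBTRNAILE.05. The most positive were 1.11 at SPCTRNALEU.12, 0.81 at SPATRNAILE.04 and 0.61 at SPATRNAILE.03. A difference of this kind contains the Taz1_wt value, so genes high on that array have negative differences in part by construction.

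On Taz1_L593F the 5 highest genes, chosen by that rank, were tRNA genes with values well above 0. SPATRNALEU.01, a leucine gene of chromosome I, stood at 0.40 (Taz1_wt), 0.54 (Taz1_GFP), 0.50 (Taz1_L593F) and 0.12 (Rif1_Myc). SPATRNAVAL.01 stood at 0.31, 0.58, 0.45 and 0.34, and SPBTRNALYS.06 at 0.65, 0.60, 0.37 and −0.10. SPATRNAARG.01 stood at 0.46, 0.49, 0.35 and 0.07, and SPATRNAILE.01 at 0.20, 0.04, 0.36 and −0.43. All 3 Taz1 arrays were above 0 at each of these genes, by amounts that differed. The Taz1_L593F value was below that of Taz1_wt at SPBTRNALYS.06 and SPATRNAARG.01, and above it at the others. At SPATRNAILE.01 Taz1_L593F was the highest array.

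The difference Taz1_GFP minus Taz1_wt, which shares the Taz1_wt array, had a median of −0.04 at tRNA genes, with 103 of 170 below 0 against 50.6% of windows. For 5S genes it was −0.11, with 25 of 36 below 0. At the inner single genes it was 1.49, since the depletion there on Taz1_wt was not seen on Taz1_GFP.

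**Figure D4:**
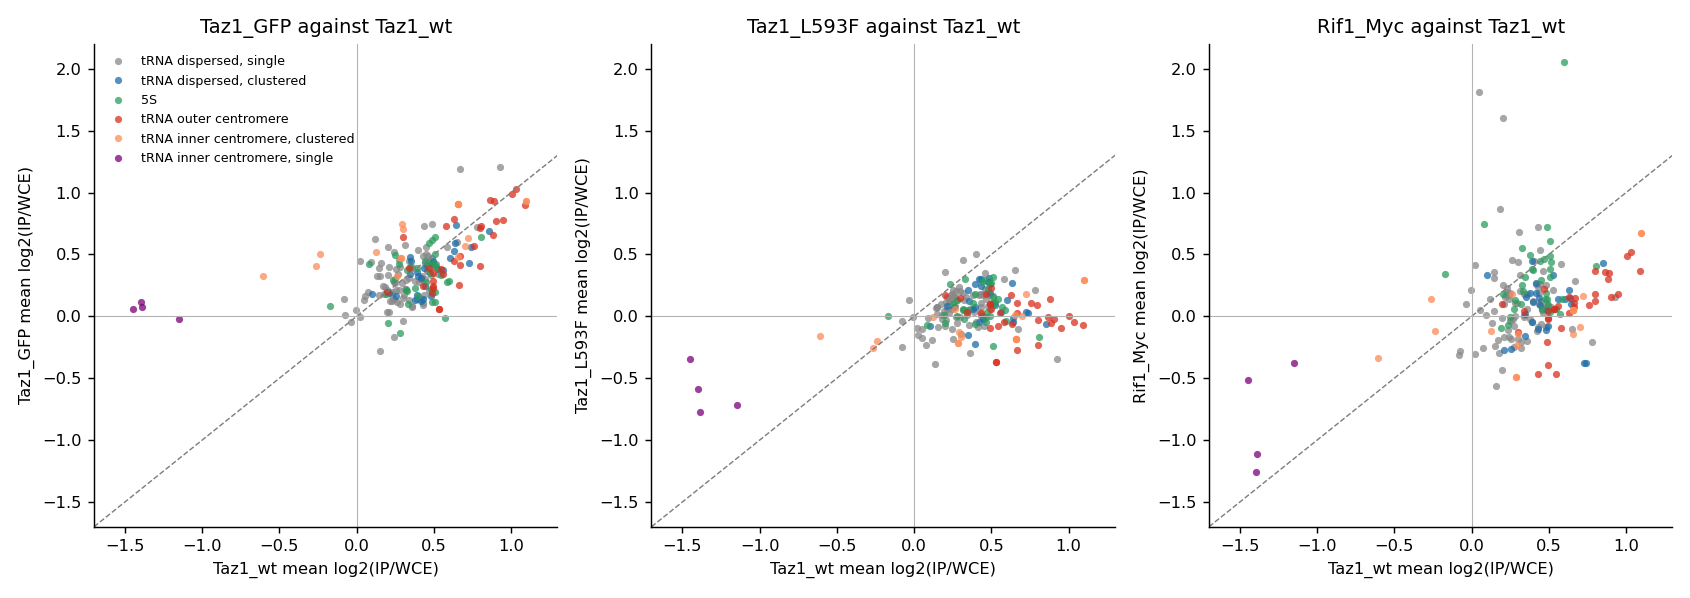
Mean log2(IP/WCE) of each gene on Taz1_GFP, Taz1_L593F and Rif1_Myc (vertical axes) against Taz1_wt (horizontal axes), coloured by position class, with the line of equal values dashed. Most genes lie along the line for Taz1_GFP and below it for Taz1_L593F, where the outer centromeric genes sit near 0, and 3 genes at 1.61 or higher on Rif1_Myc are at 0.60 or less on Taz1_wt.

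On Rif1_Myc most tRNA genes lay near the array median, and 3 genes of chromosome I stood apart. SPRRNA.11, a 5S gene, stood at 0.60 (Taz1_wt), 0.29 (Taz1_GFP), −0.03 (Taz1_L593F) and 2.05 (Rif1_Myc). SPATRNAALA.03, an alanine gene, stood at 0.05, 0.13, −0.10 and 1.82. SPATRNAALA.01, an alanine gene of another sequence, stood at 0.20, 0.34, −0.08 and 1.61. All 3 were past 2-fold on Rif1_Myc and on no Taz1 array, and SPRRNA.11 was also past 1.5-fold on Taz1_wt. On Rif1_Myc 2-fold was passed by 1.18% of tRNA genes and 2.78% of 5S genes, against 1.86% of all windows. The share of tRNA genes was thus not above the background.

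The highest Rif1_Myc tiles near these genes lay outside their windows. The highest Rif1_Myc tile within 3 kb was 3.08 at SPRRNA.11, 957 bp upstream of the gene. At SPATRNAALA.03 it was 2.43, 1069 bp downstream, towards the protein-coding gene pdc201 at 2309 bp. At SPATRNAALA.01 it was 2.27, 1195 bp downstream. The tile over SPATRNAALA.01 itself, at 2.11, was nearly as high and stood above its neighbours at 1.69 and 1.59. Identical copies showed no such level. SPATRNAALA.02, the other copy of the SPATRNAALA.03 sequence, stood at 0.20 on Rif1_Myc, and the other 8 copies of the SPATRNAALA.01 sequence ranged from −0.27 to 0.67.

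**Figure D5:**
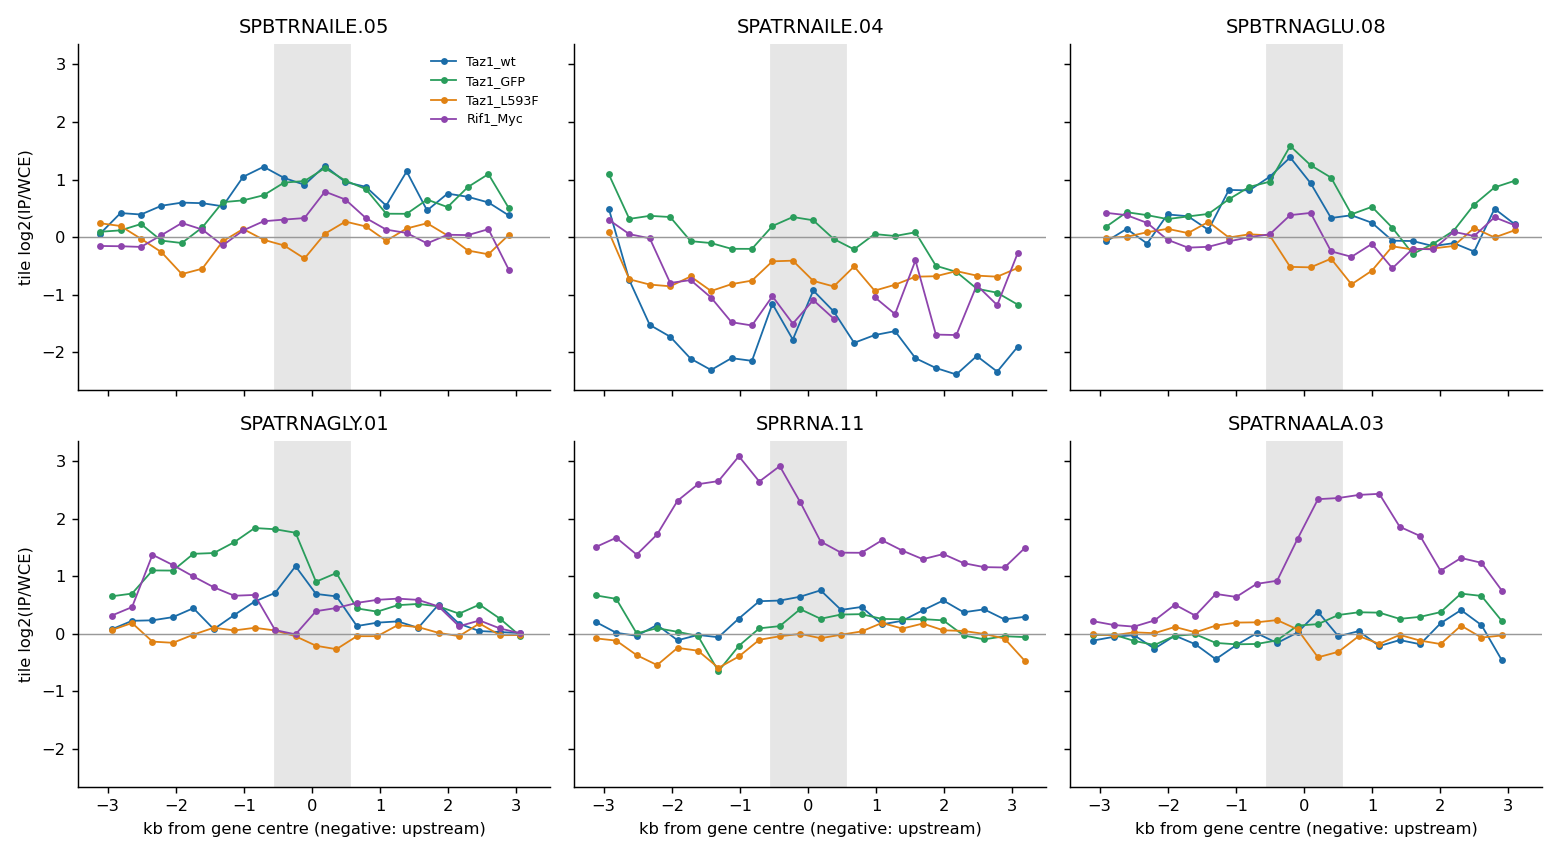
Log2(IP/WCE) of single tiles (points) against the distance in kb from the gene centre, upstream negative, for 6 genes, with the window shaded. SPBTRNAGLU.08 has its summit of 1.39 on Taz1_wt and 1.58 on Taz1_GFP inside the window, SPATRNAILE.04 lies in a wide depletion on Taz1_wt, and at SPRRNA.11 and SPATRNAALA.03 the Rif1_Myc summits of 3.08 and 2.43 lie outside it.

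The next highest values on Rif1_Myc were 0.87 at SPATRNATHR.01, a threonine gene, and 0.75 at SPRRNA.07, a 5S gene of chromosome III at 0.08 on Taz1_wt, 0.42 on Taz1_GFP and −0.07 on Taz1_L593F. Their highest tiles within 3 kb, 2.54 and 2.19, lay 2935 bp downstream and 1501 bp upstream. The lowest dispersed gene on Rif1_Myc was SPBTRNAGLY.09 at −0.56, with 0.16, 0.43 and −0.08 on Taz1_wt, Taz1_GFP and Taz1_L593F.

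On the 3 Taz1 arrays the quartiles of the 5S genes lay closer together than those of the tRNA genes, at 0.32 and 0.51 against 0.24 and 0.53 on Taz1_wt. On Rif1_Myc they lay farther apart, at 0.10 and 0.44 against −0.11 and 0.19. The highest was SPRRNA.33, beside pht1, at 0.81 (Taz1_wt), 0.64 (Taz1_GFP), −0.17 (Taz1_L593F) and 0.41 (Rif1_Myc). SPRRNA.03 stood at 0.51, 0.64, −0.24 and 0.04, SPRRNA.53 at 0.51, 0.41, 0.32 and 0.61, and SPRRNA.27 at 0.28, −0.13, 0.00 and 0.13. SPRRNA.17 was the lowest on Rif1_Myc, at −0.09, with 0.19, 0.18 and 0.01 on the Taz1 arrays.

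The divergent 5S genes took different places on different arrays. SPRRNA.54, between zuo1 and rap1, was the only 5S gene below 0 on Taz1_wt, at −0.17, with 0.08 on Taz1_GFP, 0.00 on Taz1_L593F and 0.34 on Rif1_Myc. SPRRNA.41 stood at 0.33, 0.10, 0.30 and 0.20, with the Taz1_L593F value above the upper 5S quartile of 0.16. SPRRNA.33 carries the common 119-base sequence without a difference, as does SPRRNA.27, so the highest 5S gene and the lowest on Taz1_GFP had the same core sequence.

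The letters counted in the genes did not go with the level among dispersed genes. With the B box letters (81 genes) the medians were 0.35 (Taz1_wt), 0.31 (Taz1_GFP), 0.06 (Taz1_L593F) and 0.10 (Rif1_Myc), and without them (35 genes) 0.34, 0.30, 0.08 and 0.08. The core of the telomere repeat, GGTTAC on either strand, was in the windows of 33 of 171 tRNA genes (19.3%) and 3 of 36 5S genes (8.33%), against 23.9% of all windows. The 20 dispersed genes with 1 copy had a median of 0.37 on Taz1_wt and 0.28 on Taz1_GFP, and the 94 without had 0.34 and 0.32. A match is only a run of letters in a window of this length.

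The other genes on the list made for the RNA polymerase III system gave a mixed picture. The signal recognition particle RNA gene srp7 stood at 0.48 (Taz1_wt), 0.60 (Taz1_GFP), 0.12 (Taz1_L593F) and 0.40 (Rif1_Myc). The U6 small nuclear RNA gene snu6 stood at 0.05, 0.05, −0.03 and −0.22. The RNase P RNA gene rrk1, on the list although which polymerase transcribes it was not examined here, stood at 0.24, −0.02, −0.09 and 0.41. The 10 protein-coding genes of the machinery were sfc1, sfc3, sfc4, sfc6, sfc7 and sfc9 of TFIIIC, sfc2 of TFIIIA, and brf1, bdp1 and tbp1 of TFIIIB. They had medians of −0.03, 0.03, −0.03 and −0.07, with 0 of 10 at 2-fold on any array. Of all protein-coding genes only 0.274% (Taz1_wt), 0.627% (Taz1_GFP), 0.0196% (Taz1_L593F) and 1.14% (Rif1_Myc) reached 2-fold, so 0 of 10 does not set these genes apart. Of these RNA genes srp7 alone had values at or above the tRNA medians on every array.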

How the data were processed

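The samples were 4 two-colour Agilent tiling arrays, 1 per group, so no replicate error or test was available. Agilent Feature Extraction 11.5.1.1 made the scanner output, per the file headers, which include background subtraction and dye scaling for the processed intensity of both channels. A log10 ratio of red to green is deposited for each spot and a log2 ratio in the series matrix, and the processed intensities were checked against both. For each tile log2(red/green) was taken and the median tile of its array set to 0, without loess or quantile normalization. Outlier spots were left out, 74, 31, 2 and 9 on Taz1_wt, Taz1_GFP, Taz1_L593F and Rif1_Myc. Precision is limited by there being 1 array per group.

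Which genome build the probe names refer to is not stated in the labels or headers. Tiles were registered on ASM294v3 by correlating whole-cell extract signal with GC content in segments of constant shift, 8 of 10 of which were placed. The best local shift lay within 300 bp in 135 of 135 windows, with a median deviation of 50 bp. The registration and the window means were tested on simulated data. Tools were Python 3.11.15, pandas 2.3.3, numpy 2.4.6, scipy 1.17.1, matplotlib 3.10.9, and R 4.3.3 with limma 3.58.1 for normexp and loess.

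The members, gene lists and comparisons were chosen with earlier results of these data known. Named genes were the 5 highest and 3 lowest members per array with at least 2 tiles, members past 2-fold, the highest and lowest 5S gene per array, the 3 highest and lowest centromeric genes on Taz1_wt, the 3 largest differences each way between Taz1_L593F and Taz1_wt, and the RNA polymerase III list. Genes that share a named sequence, flank a core or end a locus, SPRRNA.10, SPRRNA.41 and the gene with no tile were added after values were seen. Alternatives were normexp, loess, the matrix values, scaling, spot filters, other windows and summaries, marked probes left out, GC content, no registration, and other class limits.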

Additional observations from a re-analysis of the deposited data

How the results depend on the processing

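No paired analysis was possible because each group has 1 array. Of the recomputed main values, 389 stayed within the 95% interval of the median over genes, or within 1.5 times a count, 64 moved beyond that, and 8 changed sign where that interval excluded 0. Signs changed 19 times in all, 11 of them where it held 0. The 389 include values that were bound to stay. The matrix values differed from the scanner ratios by a median of 2.5e-10 on each array, so using them could move nothing. Nor could dropping genes close to a chromosome end, as 0 tRNA and 0 5S genes lay that near (50 kb) on chromosome I or II. The 389 thus overstate how many checks could have changed a value. Leaving out probes marked m or f, members at uncertain breaks or the inner single genes, and counting 1 value per locus, were chosen after seeing the data.
With normexp the tRNA medians became 0.32 (Taz1_wt), 0.28 (Taz1_GFP), −0.019 (Taz1_L593F) and −0.24 (Rif1_Myc), and the 5S medians 0.20 on Taz1_GFP and −0.030 on Rif1_Myc. The centromeric minus dispersed difference became 0.63, 0.46, 0.0035 and 0.097, the clustered minus single difference 0.029, −0.17 and, on Rif1_Myc, −0.31, and the counts of tRNA and 5S genes at least 2-fold enriched 28 on Taz1_wt and 19 on Taz1_GFP, against 1.17% and 2.09% of all windows under that setting.
Without registration the tRNA medians were 0.19, 0.16 and, on Rif1_Myc, 0.015, and the 5S medians 0.086, 0.076, −0.0021 and 0.063. The 2-fold counts were 1 on Taz1_wt and 1 on Taz1_GFP (windows 0.528% and 1.09%), and the Taz1_L593F minus Taz1_wt medians −0.17 and −0.12.
Gene tiles alone gave tRNA medians of 0.47, 0.42, 0.076 and 0.14, 5S medians of 0.55, 0.15 (Taz1_L593F) and 0.48 (Rif1_Myc), 2-fold counts of 9 and 6 (windows 0.653% and 1.33%), and a 5S difference of −0.46. Flanking tiles alone gave tRNA medians of 0.32, 0.29 and 0.016 (Rif1_Myc), a centromeric difference of −0.0026 on Taz1_L593F and a tRNA allele difference, Taz1_L593F minus Taz1_wt, of −0.26.
Tiles within 1000 bp gave tRNA medians of 0.29, 0.27 and 0.010 (Rif1_Myc), 5S medians of 0.30 and 0.21, 2-fold counts of 0 and 1 (windows 0.489% and 0.888%), and an allele difference of −0.25.
With GC content removed the tRNA medians were 0.28 (Taz1_GFP), −0.0060 (Taz1_L593F) and 0.18 (Rif1_Myc), and the Taz1_wt 2-fold count 3 (windows 0.501%). Loess gave 3 for that count (windows 0.443%) and Rif1_Myc medians of 0.29 for tRNA and 0.48 for 5S genes. Scaling the arrays gave Taz1_wt medians of 0.46 and 0.53 and a count of 12 (windows 0.730%).
Without marked probes the Taz1_wt count was 0 (windows 0.302%), the Taz1_GFP tRNA median 0.30 and its centromeric difference −0.10. With 1 value per locus the tRNA medians were 0.32 and 0.31, the Taz1_wt centromeric difference −0.029, the count of loci 0 and the allele difference −0.25. At 1.5-fold the counts were 40, 36 and, on Rif1_Myc, 11 (windows 1.83%, 3.21% and 6.97%). With 1 mismatch the A box letters were in 60.8% of tRNA genes, against 0.544% of genome pieces of the median tRNA gene length. GGTTAC was then in 100% of tRNA gene windows and in 99.83% of all windows. The causes were not tested.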

Other observations

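The amino acid families of the dispersed tRNA genes, were all above 0 on Taz1_wt by their medians. Among the 19 families with at least 3 dispersed genes, the family median ran from 0.20 for glutamate (5 genes) to 0.46 for arginine (7 genes). On Taz1_GFP it ran from 0.04 for isoleucine (3 genes) to 0.54 for glutamine (6 genes). On Taz1_L593F the medians ran from −0.02 for asparagine (5 genes) to 0.17 for isoleucine, and on Rif1_Myc from −0.19 for isoleucine to 0.22 for threonine (8 genes). Isoleucine genes were thus the lowest family on Taz1_GFP and Rif1_Myc and the highest on Taz1_L593F, from 3 genes. Arginine genes stood at 0.46, 0.43, 0.04 and 0.07 on Taz1_wt, Taz1_GFP, Taz1_L593F and Rif1_Myc, and serine genes (12 genes) at 0.29, 0.25, 0.16 and 0.17.

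The dispersed tRNA genes of chromosome II (41 genes) had medians of 0.43 on Taz1_wt and 0.43 on Taz1_GFP. Those of chromosome I (49 genes) had 0.31 and 0.30, and those of chromosome III (26 genes) 0.31 and 0.21. At least 1.5-fold enrichment on Taz1_wt was reached by 10 genes of chromosome II, 1 of chromosome I and 0 of chromosome III, against 1.83% of all windows. The 5S medians on Taz1_wt were 0.42 for chromosome I, 0.45 for II and 0.49 for III. The whole-cell extract signal at the dispersed tRNA genes had a centred log2 median of −1.33 on chromosome II, −0.80 on chromosome I and −0.79 on chromosome III, and its part was not tested.

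The A box letters, read as TGGC, any 2 bases, AGT, at most 1 further base and GG, were found without a mismatch in 6 of 171 tRNA genes, and with 1 mismatch in 60.8%. The shares of genome pieces of the median tRNA gene length were 0.0157% and 0.544%.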
